A study of Mus musculus with 2 samples.

Results

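Collagens are the main structural proteins of the aortic wall. The collagen genes described here are those with a probe whose gene name on the array has the form Col, a type number, the letter a and a chain number. There were 79 such probes for 39 genes, of 41150 probes for 27380 genes or transcripts on the array. For 36 of the 39 genes, with 62 of the 79 probes, at least 1 probe was detected above background in at least 1 aortic region on both arrays, and 35 of these were so in both regions. The other 3 genes, Col9a1, Col10a1 and Col17a1, did not pass, with spot signals of 58.6 to 78.9 intensity units. The median local background over all gene spots was 40 to 48 per channel. Col9a1 was above background only for the thoracic aorta on array 1 and the aortic arch on array 2.

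Each collagen molecule is a triple helix of 3 chains, which are the same or differ according to the type. Fibrillar collagens form the load-bearing fibres of the media and adventitia, type IV chains form the sheet-like basement membrane around each smooth muscle cell, and type VI forms beaded microfilaments between the cells and the fibres. FACIT collagens (fibril-associated collagens with interrupted triple helices) sit on the surface of fibrils, and the short-chain collagens VIII and X form hexagonal networks. In arteries, smooth muscle cells and adventitial fibroblasts produce most of these proteins.

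RNA was taken from the aortas of wild-type C57Bl/6 mice, an inbred strain, at 16 weeks of age, after the vessel had been perfused with Triton X-100 against the endothelium. The region labelled prone to atherosclerosis ran from the aortic root through the arch to 2 mm down the thoracic aorta, and the one labelled resistant was the 6 mm after it. All RNA extracts had integrity numbers from 7.5 to 7.7. Extracts of 6 mice, 3 males and 3 females, were combined into 1 pool per region. The same pair of pools was hybridised to 2 two-colour whole mouse genome arrays, the arch being labelled with Cy5 for array 1 and, after the dye swap, with Cy3 for array 2. Each value below is a normalised log2 ratio with the arch as numerator, so positive values mean a higher signal in the arch. The error after ± is how far the arrays lie from their mean (n = 2 arrays of the same RNA). It is technical, since with 1 pool a region there is no replicate check and no test between regions, and precision is limited by the small number of arrays. In whole tissue, fewer cells of a type and less RNA per cell cannot be told apart. A gene counted as higher or lower only when it was at least 1.5-fold so on each array.

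No collagen gene passed the 1.5-fold rule in either direction: 0 of the 36 measured were higher in the arch, where 0.257% of all 21367 measured genes were, and 0 were lower, where 0.229% were. Their median log2 ratio was 0.00, as was the median over all genes. The furthest below 0 was Col8a2, a chain of the type VIII network, at −0.58 ± 0.06, followed by Col6a3 of the beaded filaments at −0.43 ± 0.02 and Col1a1 of the main fibrils at −0.30 ± 0.01. The highest in the arch was Col15a1, a collagen of the basement membrane zone, at 0.36 ± 0.06. With a looser rule of 1.3-fold on each array, Col8a2 and Col6a3 were lower (2 of 36, against 0.524% of all genes) and 0 were higher (0.627% of all genes).

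The arrays set the resolution of these ratios. The distance of either array from the mean had a median of 0.05 over the collagen genes and of 0.04 over all genes. Among collagen genes it was at most 0.19 (Col6a2). The arrays gave opposite signs for 18 of the 36 collagen genes, where they did so for 45.2% of all genes, and gave negative values on both arrays for 11 and positive values on both for 7. A mean ratio within 0.2 of 0 was found for 31 of them (86.1%, against 93.1% of all genes), with Col8a2, Col6a3, Col1a1 and Col4a2 below that range and Col15a1 above it.

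**Figure D1:**
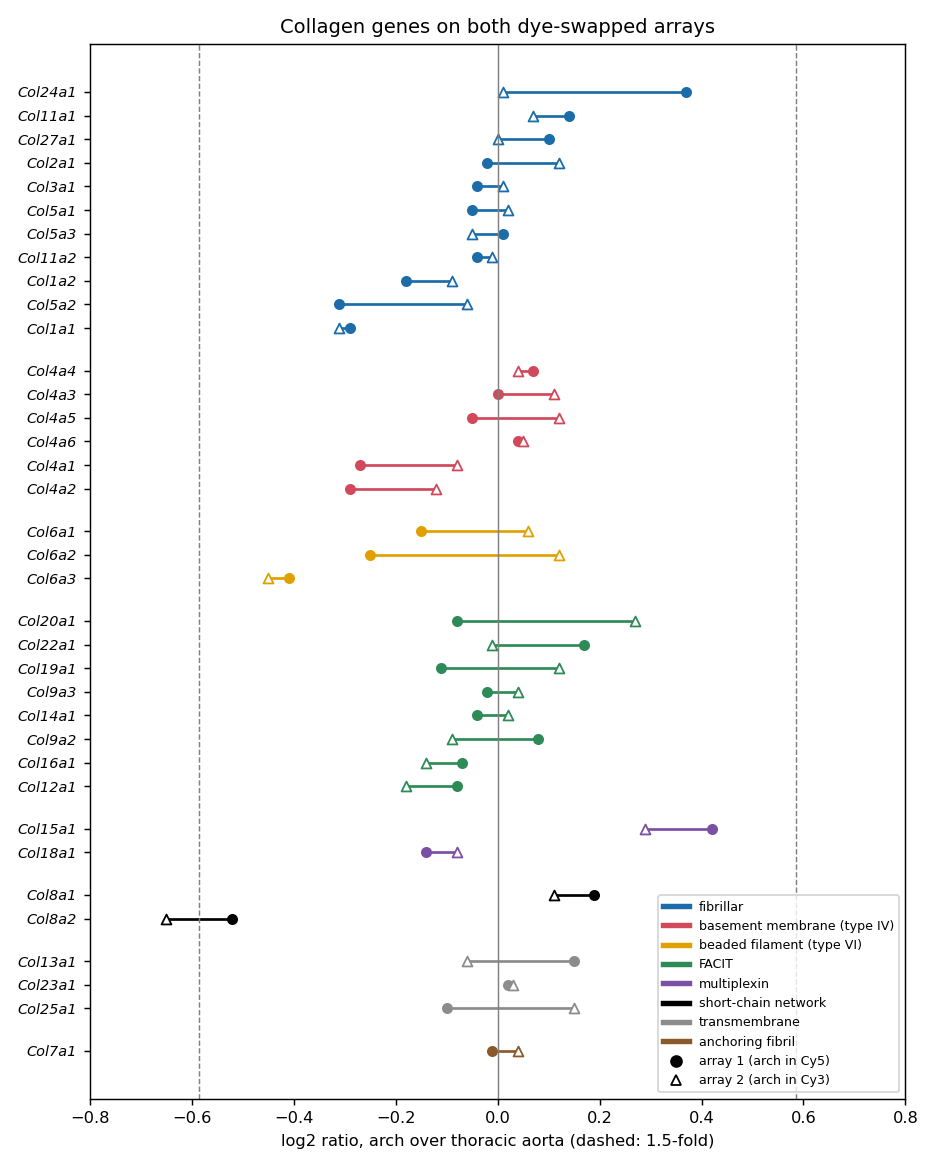
Log2 ratio of arch over thoracic aorta for each of the 36 measured collagen genes, 1 row a gene, coloured by collagen type. Filled circles are array 1 and open triangles array 2, the line joins them, and dashed lines mark 1.5-fold. Col8a2, at −0.52 and −0.65, is the only gene with a point beyond a dashed line.

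**Figure D2:**
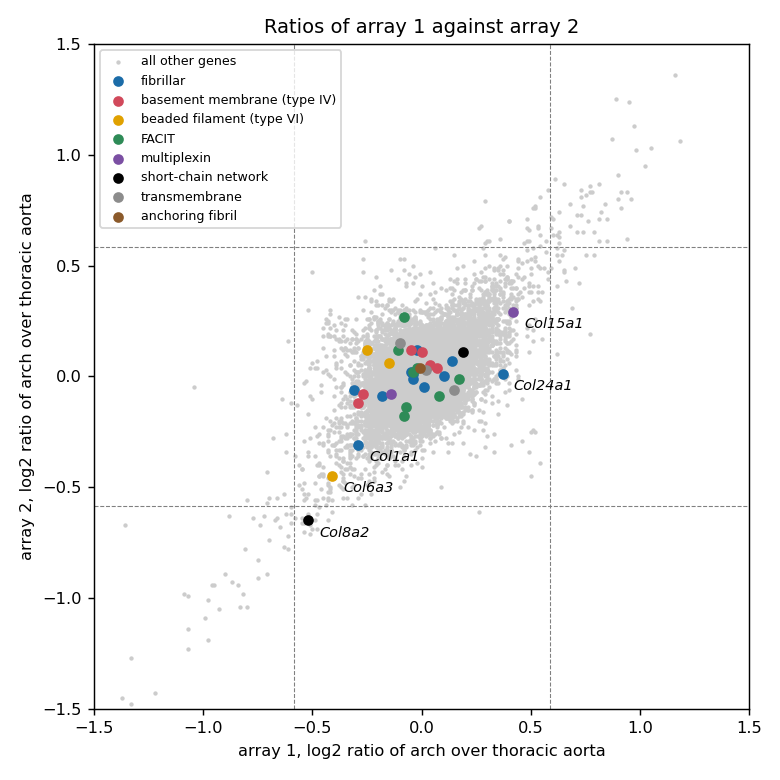
Log2 ratio on array 1 (x axis) against array 2 (y axis) for all 21367 genes in grey, with collagen genes coloured by type and 15 genes lying outside the axes. No coloured point lies beyond the dashed 1.5-fold lines on both axes, and Col8a2, Col6a3 and Col1a1 lie toward the lower left.

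Type VIII collagen is a short-chain collagen of vessel walls and of the corneal basement layer, built of the chains α1 (Col8a1) and α2 (Col8a2). The 250 bases before the annotated start of each gene are shown because these 2 chains of the type had ratios of opposite sign at their brightest probes. Both come from RefSeq (GRCm38.p6), at chr4:126286544-126286793 on the plus strand for Col8a2 and chr16:57754738-57754987 on the minus strand for Col8a1, and read 5′ to 3′. Capitals mark GC boxes, GGGCGG on either strand.
Col8a2: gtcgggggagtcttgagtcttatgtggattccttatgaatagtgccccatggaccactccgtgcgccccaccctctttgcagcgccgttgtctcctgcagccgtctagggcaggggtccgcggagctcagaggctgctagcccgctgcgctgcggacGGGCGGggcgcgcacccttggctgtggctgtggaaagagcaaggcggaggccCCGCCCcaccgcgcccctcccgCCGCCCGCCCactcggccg
Col8a1: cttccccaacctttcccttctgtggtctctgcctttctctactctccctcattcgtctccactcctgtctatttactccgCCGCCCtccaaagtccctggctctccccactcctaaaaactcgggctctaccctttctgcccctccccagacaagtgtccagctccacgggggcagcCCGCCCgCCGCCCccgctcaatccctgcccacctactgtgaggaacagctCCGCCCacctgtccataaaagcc
Each window holds 4 GC boxes, counting overlaps between boxes, and neither holds a TATA box (TATAAA) or a CCAAT box (CCAAT) on either strand. Among windows of this length before 32851 annotated starts, 32.7% hold a GC box, 12.4% a TATA box and 33.8% a CCAAT box. Of 31 collagen genes with a window in the table, 18 hold a GC box, 5 a TATA box and 11 a CCAAT box. A match is a description of the letters and not of a bound factor.

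For Col8a2, the spot signal on array 1 was 126 for arch against 193 for thoracic RNA, and on array 2 it was 132 and 216. The arch was the dimmer region whichever dye it carried. Its ratio was −0.52 on array 1 and −0.65 on array 2, so that array 2 alone met 1.5-fold and array 1 did not. Normalisation added a background offset of 50 units to each signal, which draws the ratios of dim spots toward 0. Without that offset Col8a2 measured −0.87 ± 0.09, and with the ratios of the scanner software −0.93 ± 0.07. It was lower by the 1.5-fold rule under both, which called 0.487% and 0.599% of all genes lower. Col8a1 had signals of 306 for arch against 278 for thoracic RNA on array 1, and 282 against 299 on array 2. The sign of this raw difference turned with the dye, and the normalised ratios were 0.19 and 0.11 (mean 0.15 ± 0.04). A dimmer probe for Col8a1 gave 0.03 ± 0.02, and the mean of its probes was 0.09 ± 0.03. At its brightest probe, the α1 chain exceeded the α2 chain in ratio by 0.71 on array 1 and 0.76 on array 2. Their mean difference was 0.74 ± 0.03. That was the largest difference among 14 pairs of related chains compared, and it was 1.12 with the scanner software's ratios and 0.69 with median centring. The third short-chain gene, Col10a1 of growth cartilage, was among those that did not pass the detection filter.

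Beaded filaments of type VI collagen contain the chains α1, α2 and α3, and all 3 genes were measured. Col6a3, the large α3 chain, had signals of 769 for arch against 1007 for thoracic RNA on array 1, and 741 against 1243 on array 2. The arch was lower in both dyes, with ratios of −0.41 and −0.45. Col6a1 measured −0.15 and 0.06 (mean −0.05 ± 0.11) and Col6a2 −0.25 and 0.12 (mean −0.07 ± 0.19), so for these chains the arrays differed in sign. Col6a3 lay below Col6a1 by 0.38 ± 0.13 and below Col6a2 by 0.36 ± 0.21, and on each array it was the lowest of the 3. Col6a1 and Col6a2, which are neighbours in the genome, differed by 0.02 ± 0.08. The median of the type was −0.07, from −0.25 on array 1 to 0.06 on array 2. The ratio of Col6a3 was nearly the same without the offset (−0.45 ± 0.02) and with the scanner software (−0.45 ± 0.03). Only 1 of the 3 probes named for Col6a3 was detected above background, so the value rests on a single probe.

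The windows before the starts of Col6a3, at chr1:90843972-90844221 on the minus strand, and Col15a1, at chr4:47207762-47208011 on the plus strand (RefSeq, GRCm38.p6), are shown beside those of type VIII because they belong to the next lowest and the highest collagen gene.
Col6a3: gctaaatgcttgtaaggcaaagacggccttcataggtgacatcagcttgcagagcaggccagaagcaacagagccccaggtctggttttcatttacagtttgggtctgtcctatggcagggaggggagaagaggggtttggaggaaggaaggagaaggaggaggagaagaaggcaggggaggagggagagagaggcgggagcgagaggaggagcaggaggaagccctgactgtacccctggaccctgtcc
Col15a1: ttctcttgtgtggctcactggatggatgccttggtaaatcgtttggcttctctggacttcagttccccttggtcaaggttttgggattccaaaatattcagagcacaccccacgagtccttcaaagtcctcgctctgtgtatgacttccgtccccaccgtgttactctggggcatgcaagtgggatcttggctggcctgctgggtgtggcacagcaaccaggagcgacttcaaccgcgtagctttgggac
Neither window holds any of the 3 motifs on either strand.

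Of fibrillar collagens all 11 genes on the array were measured, with a median of −0.02 (−0.04 on array 1 and 0.00 on array 2), 7 means below 0 and 4 above. Type I collagen, the main tensile fibre, is made of 2 chains of Col1a1 to 1 of Col1a2. For Col1a1 the spot signals were 8165 for arch against 8949 for thoracic RNA on array 1, and 8220 against 13849 on array 2. These were among the brightest spots on the array, and after loess normalisation the ratios were −0.29 and −0.31. Col1a2 measured −0.18 and −0.09 (mean −0.13 ± 0.04) at its brightest probe and 0.01 ± 0.00 at a dim probe. At their brightest probes, Col1a1 lay lower than its partner by 0.16 ± 0.05. Col3a1, whose chain forms type III fibres by itself, measured −0.04 and 0.01 at its brightest probe, with a mean of −0.01 ± 0.03. A dimmer probe for Col3a1 gave 0.12 ± 0.06. None of the collagen spots was saturated.

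Type V collagen, which nucleates fibrils and limits their width, had Col5a2 at −0.31 and −0.06 (mean −0.18 ± 0.12), Col5a1 at −0.02 ± 0.04 and Col5a3 at −0.02 ± 0.03. The difference between Col5a1 and Col5a2 was 0.16 ± 0.09. Col24a1, a fibrillar collagen of developing bone and cornea, had the highest mean of the type at 0.19 ± 0.18, but that came from array 1 (0.37) and was 0.01 on array 2. Type XI collagen accompanies type II in cartilage fibrils. Its chain gene Col11a1 measured 0.14 and 0.07 (mean 0.11 ± 0.04) and Col11a2 −0.03 ± 0.01. Col2a1, the type II collagen of cartilage, was detected at its brightest probe with signals of 4193 for arch against 3935 for thoracic RNA on array 1, and 3758 against 4524 on array 2. Its ratios there were −0.02 and 0.12 (mean 0.05 ± 0.07), and its other probes gave 0.17 ± 0.03 and 0.02 ± 0.18. Of 7 measured cartilage markers other than collagens, 1, Cytl1, was higher in the arch by the rule (1.95), against 0.257% of all genes. Sox9 followed at 0.31 ± 0.12, and the median of the list was 0.16. Its signals summed to 2581 and 2726 in the arch against 1598 and 1824 in the thoracic aorta, but without Cytl1 the sums were 1296 and 1453 against 1260 and 1420. Matn1, Matn3 and Cnmd were not detected above background. Any part of cartilage in the type II and XI values was not tested. Col27a1 measured 0.05 ± 0.05.

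The type IV chains assemble as α1α1α2, α3α4α5 or α5α5α6, and their genes lie in head-to-head pairs. The annotated starts of Col4a1 and Col4a2 lie 21 bases apart on opposite strands, and those of Col4a5 and Col4a6 lie 1343 bases apart. All 6 genes were measured, with a median of 0.04 (−0.02 on array 1 and 0.04 on array 2). Col4a1 and Col4a2, the chains of the usual basement membrane, were the only members below 0. Col4a1 gave signals of 372 for arch against 456 for thoracic RNA on array 1, and 414 against 515 on array 2, and a ratio of −0.27 and −0.08 (mean −0.17 ± 0.10). Col4a2 gave signals of 189 against 242 on array 1, and 262 against 327 on array 2, with a ratio of −0.29 and −0.12 (mean −0.21 ± 0.08). These 2 chains differed by 0.04 ± 0.01, less than the distance between the arrays for either. Another probe gave −0.02 ± 0.14 for Col4a1 and −0.13 ± 0.03 for Col4a2. At their brightest probes, the chains of the restricted networks lay between 0.04 and 0.06. These were Col4a3 at 0.05 ± 0.06, Col4a4 at 0.06 ± 0.01, Col4a5 at 0.04 ± 0.08 and Col4a6 at 0.04 ± 0.00. Other detected probes gave 0.10 ± 0.01 for Col4a3, and 0.16 ± 0.07 and 0.01 ± 0.08 for Col4a6. A dimmer probe for Col4a4, designed to a cDNA clone, gave 0.39 and 0.40, and its spot signals, 234 against 187 and then 223 against 188, were higher in the arch in both dyes. The 2 probes for this gene therefore disagreed in size by 0.34, the widest spread of any collagen gene.

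Of 9 FACIT genes 8 were measured, with a median of 0.00, means from −0.13 to 0.10, and 4 on either side of 0. Col12a1 and Col14a1 encode the collagens that coat type I fibrils. Col14a1 had signals of 1860 for arch against 1825 for thoracic RNA on array 1, and 1892 against 2370 on array 2, with ratios of −0.04 and 0.02 (mean −0.01 ± 0.03). Col12a1 was dim, at 63.6 against 77.1 on array 1 and 72.3 against 73.0 on array 2, and in the arch it was above background on 1 of the 2 arrays. Its ratios were −0.08 and −0.18 (mean −0.13 ± 0.05), but −0.52 ± 0.22 without the offset and −0.74 ± 0.01 with the scanner software's ratios, where it passed the rule. With those ratios 2 of 36 collagen genes were lower, Col8a2 and Col12a1, where 0.599% of all genes were lower. None was higher, where 0.711% of all genes were higher. Col16a1, found near microfibrils and in smooth muscle layers, measured −0.07 and −0.14 (mean −0.11 ± 0.03). The highest FACIT means were those of Col20a1 (0.10 ± 0.17) and Col22a1 (0.08 ± 0.09), for both of which the arrays differed in sign. Type IX chains of cartilage fibrils measured −0.01 ± 0.09 for Col9a2 and 0.01 ± 0.03 for Col9a3.

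The multiplexins, Col15a1 and Col18a1, link basement membranes to the neighbouring matrix and carry the anti-angiogenic fragments restin and endostatin. Col15a1 had signals of 278 for arch against 216 for thoracic RNA on array 1, and 297 against 277 on array 2. The arch was the brighter region in both dyes, with ratios of 0.42 and 0.29 and a mean of 1.28-fold. A dimmer probe gave 0.06 ± 0.04. Col18a1 measured −0.14 and −0.08 (mean −0.11 ± 0.03), with −0.10 ± 0.05 at another probe, and lay below Col15a1 by 0.46 ± 0.09. The remaining measured genes, the transmembrane collagens Col13a1, Col23a1 and Col25a1 and the anchoring fibril gene Col7a1, had means from 0.01 to 0.05.

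Fibrillar, basement membrane, beaded and FACIT collagens had medians close to each other. These medians of −0.02, 0.04, −0.07 and 0.00 differed by at most 0.10. On array 1 alone beaded collagens lay below the fibrillar, basement membrane and FACIT types by 0.22, 0.23 and 0.20, and on array 2 above them by 0.07, 0.02 and 0.06. In all, 4 of the 6 differences between types turned sign from one array to the other. The exceptions were fibrillar minus basement membrane (−0.01 and −0.05) and basement membrane minus FACIT (0.03 and 0.04). Fibrillar and basement membrane members overlapped in range (−0.30 to 0.19 and −0.21 to 0.06). Centring each array on its median in place of loess gave −0.12, −0.12, −0.19 and −0.05, all below 0, and Col1a1 then measured −0.47 ± 0.20, Col6a3 −0.59 ± 0.09, Col8a1 0.02 and Col15a1 0.23. That alternative moved the ratios of the 2137 brightest genes by a median of −0.17 and those of collagen genes by −0.12, against −0.06 over all genes.

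Among 22 collagen genes with several detected probes, the probes spanned a median range of 0.07, and in 7 of these genes probes had opposite signs. For Col1a1 the 3 probes gave −0.30 ± 0.01, −0.18 ± 0.51 and 0.00 ± 0.03. The second of these measured −0.69 on array 1 and 0.33 on array 2, and the third was dim. As the mean of its probes Col1a1 was −0.16 ± 0.18, and Col15a1 was 0.21 ± 0.01. Col8a2 had a single probe.

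**Figure D3:**
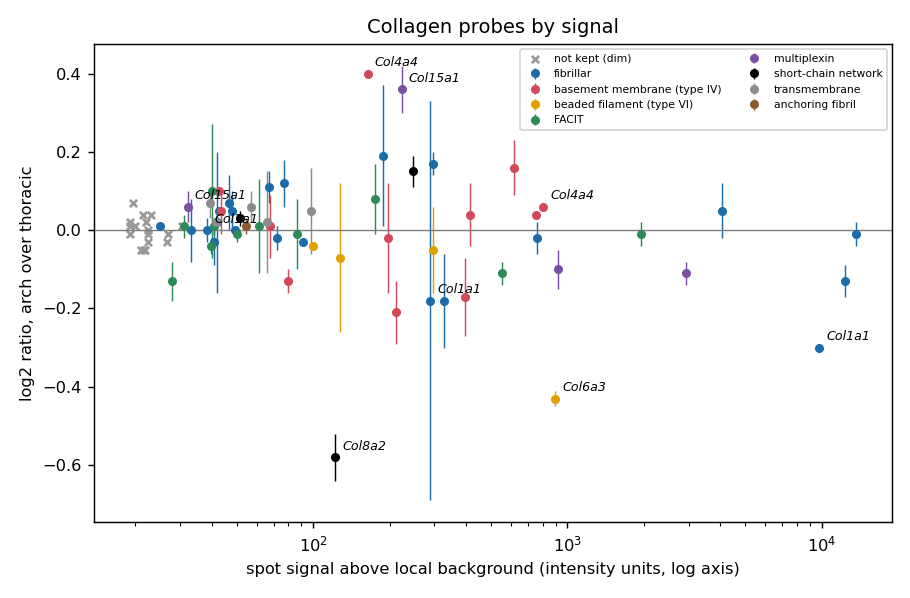
Mean log2 ratio of each collagen probe (y axis) against its spot signal above local background on a log axis, averaged over both regions and arrays. Bars reach to either array, and crosses are probes that were not kept. Col8a2, Col6a3 and the brightest Col1a1 probe lie below −0.25, and no probe lies above 0.40.

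Genes that make, mature, bind or degrade collagen were described from lists, of which none but the small proteoglycans held a gene past the 1.5-fold rule. Of 19 measured genes for folding and modification in the endoplasmic reticulum, 17 had means below 0. The median was −0.06, from −0.11 on array 1 to −0.04 on array 2. For many of these genes the arrays differed in sign, as they did for 45.2% of all genes. The lowest was P4ha2, a subunit of prolyl 4-hydroxylase, which stabilises the helix, at −0.40 and −0.44 (mean −0.42 ± 0.02), followed by P3h2, a prolyl 3-hydroxylase, at −0.16 ± 0.05. P3h3 measured 0.00 ± 0.09 and Sec23a, of the secretory vesicle coat, 0.02 ± 0.10. With median centring the median of this list was −0.20. Of 14 genes for procollagen processing and crosslinking, 10 were below 0, with a median of −0.05. Sparc, a collagen-binding chaperone of the matrix, measured −0.38 ± 0.07 and the crosslinking enzyme Loxl2 −0.32 ± 0.02, and the highest were Loxl1 (0.15 ± 0.14) and Adamts14, an N-propeptidase (0.13 ± 0.03).

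Collagen receptors had a median of −0.02 over 9 genes. Itga11, an integrin chain for fibrillar collagen, measured −0.24 ± 0.05 and the receptor kinase Ddr2 −0.23 ± 0.03, while the endocytic receptor Mrc2 was 0.16 ± 0.00. Itga1 measured 0.19 ± 0.17 at its brightest probe but −0.05 ± 0.02 as the mean of its probes. Over 10 genes of collagen degradation the median was 0.05, or −0.07 with median centring. The protease Fap (−0.43 ± 0.09) and the collagen-cleaving cathepsin Ctsk (−0.41 ± 0.12) were the lowest, and the inhibitor Timp3 (0.35 ± 0.10) and the gelatinase Mmp2 (0.27 ± 0.02) the highest. Of 9 small proteoglycans that bind fibrils, 1 was higher by the rule (against 0.257% of all genes) and 0 were lower (against 0.229%). The higher gene was Epyc, at 1.31 and 1.54 (mean 1.42 ± 0.12). Lum, which governs fibril spacing, had a ratio of 0.55 ± 0.06, Ogn −0.39 ± 0.08 and Fmod −0.58 ± 0.05. With the scanner software's ratios Fmod passed the rule as lower (−0.69 ± 0.06), where 0.599% of all genes did.

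**Figure D4:**
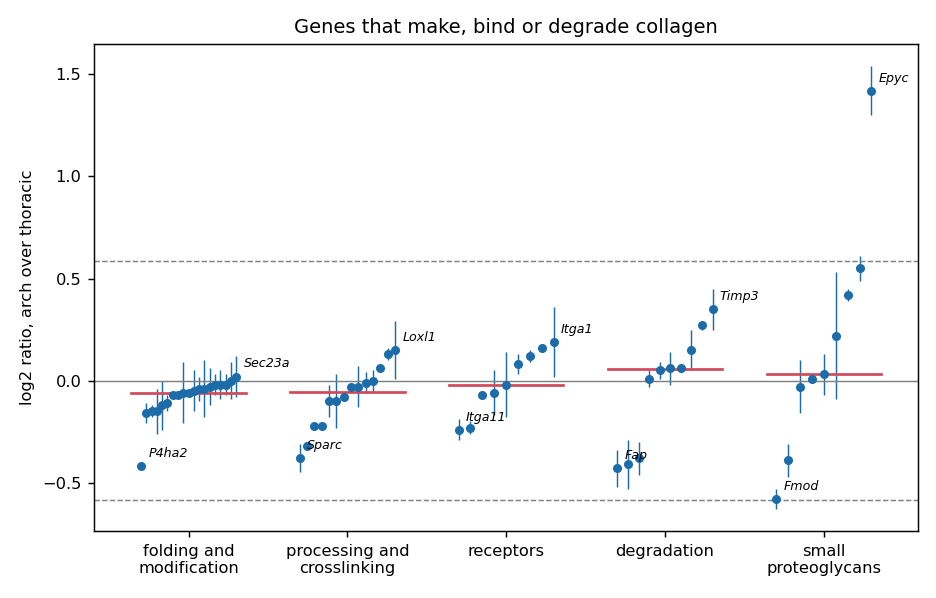
Mean log2 ratio of arch over thoracic aorta for each measured gene of 5 lists around collagen, in rising order within a list. Bars reach to either array, red lines are the list medians, from −0.06 to 0.05, and dashed lines mark 1.5-fold. Only Epyc lies beyond them.

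Markers of other cell types were set beside these ratios. Smooth muscle markers, which define the aortic media, were all detected (8 of 8), with a median of −0.03 and none called. Des and Myh11 lay furthest from 0, at −0.22 ± 0.01 and −0.22 ± 0.03. Tagln and Acta2 were saturated in Cy5 on both arrays, so their ratios of 0.02 ± 0.10 and 0.02 ± 0.11 are not well measured. Without them the median was −0.08 and the sums were 31358 to 40351 in the arch and 35178 to 50156 in the thoracic aorta. Adventitial fibroblast markers, 8 of 8 detected, had a median of 0.04 (−0.13 with median centring) with none called. They were led by Pdgfra and Lum (0.55 ± 0.15 and 0.55 ± 0.06), but the mean of the Pdgfra probes was 0.28 ± 0.05. The fibroblast marker sums were 30911 to 33288 in the arch and 26223 to 33392 in the thoracic aorta. Adipocyte markers had a median of 0.66 with 5 of 9 higher in the arch (against 0.257% of all genes), Cox7a1 (0.89 ± 0.05) and Cidea (0.81 ± 0.03) the most. Their signals summed to 29450 to 35709 against 22483 to 30664, of which Fabp4 alone gave 18809 to 24241 and 15639 to 22048. Mesothelial markers had a median of 0.39 with all 8 above 0, sums of 2050 to 2185 against 1609 to 1817, and the highest ratios at Upk3b (0.65 ± 0.12) and Msln (0.54 ± 0.05). Of these markers 0 were called, but 4 passed as higher with the scanner software's ratios, which called 0.711% of all genes higher. Cardiomyocyte markers had a median of 0.24 with 3 of 9 higher (against 0.257% of all genes), led by Myl7 (2.33 ± 0.01) and Tnnt2 (1.59 ± 0.03). Their sums overlapped (13373 to 15376 against 12552 to 18717), and Myh6 was not detected above background. Of these sums Actc1 alone gave 11304 to 13362 in the arch and 11381 to 17435 in the thoracic aorta. Macrophage markers had a median of −0.18 with all 8 below 0 and none called, the lowest being Tyrobp (−0.35 ± 0.03) and Lyz2 (−0.29 ± 0.13). Their sums were lower in the arch on array 2 and about the same on array 1 (18258 to 24017 against 23901 to 32916). Of these sums Lyz2 alone gave 15754 to 21524 in the arch and 20930 to 29604 in the thoracic aorta. Each other macrophage marker had a lower signal in the arch on both arrays. All sums here are of signals before normalisation and carry the dye, and bright genes weigh most in them. Endothelial markers had a median of 0.06 and none called, the highest being Vwf (0.26 ± 0.02) and Emcn (0.25 ± 0.02), with 9 of 10 detected (not Tie1) and sums of 1179 to 1308 against 1187 to 1341. Schwann cell markers lay from −0.06 to 0.12 (Pmp22) with a median of 0.05 and none called, with 6 of 7 detected (not Cdh19) and sums of 4309 to 4713 against 4258 to 4973. The part of any of these cells in the collagen values was not tested.

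**Figure D5:**
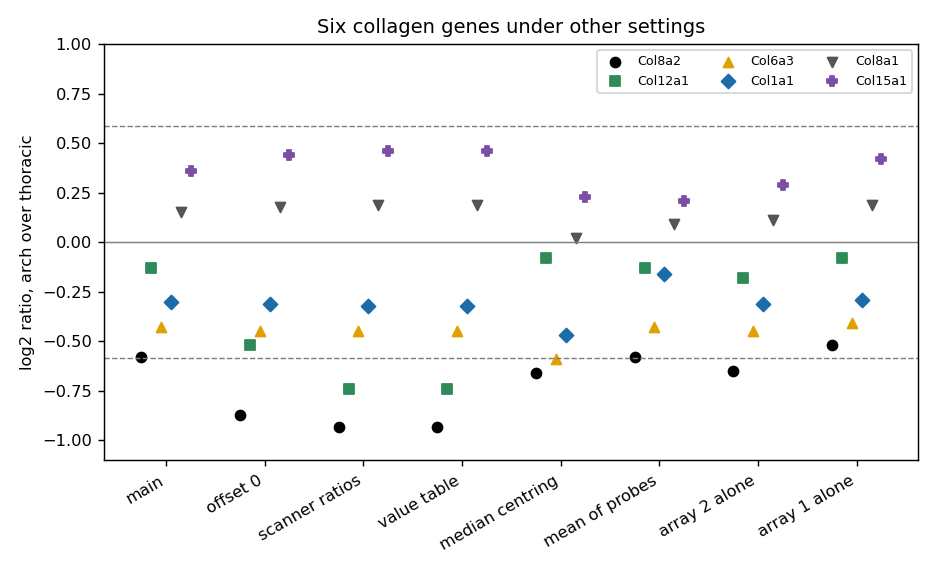
Log2 ratio of Col8a2, Col12a1, Col6a3, Col1a1, Col8a1 and Col15a1 under the main processing and 7 alternatives, with dashed lines at 1.5-fold. Col8a2 lies from −0.93 to −0.52, and Col12a1 moves from −0.13 to −0.74 with the scanner software's ratios.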

How the data were processed

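The arrays compared total RNA from 1 pool per region in both dye orientations. The authors scanned them and ran Agilent Feature Extraction (its version 9.1.1.1 is named in the submitters' processing notes). Per the file headers, the deposited files hold each spot's mean signal and local background as an intensity in each dye, plus a log10 ratio of the processed signals. Turned to arch over thoracic RNA, that log10 ratio matched the authors' deposited value table in 99.9% of features per array within 1e-06, which settled the table's scale and direction. The medians of the table are 0. The build used by the array's design is not given in the sources used here.

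Intensities were background-corrected (normexp, offset 50) and loess-normalised with limma 3.58.1 in R 4.3.3, control spots having weight 0. Control and flagged spots (20 and 4) were dropped, the sign of array 2 was reversed, and repeated spots were averaged. A probe was kept when both arrays showed it well above background in 1 region or both (30521 of 41150 probes). A gene took its brightest kept probe, giving 21367 genes. Both arrays form 1 technical replicate, so no test was made. The normalisation and the 1.5-fold rule were tested on simulated data, with a simpler filter on dim probes.

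The collagen genes and lists were chosen with earlier results of these data known. Named with values were the 3 highest and lowest genes of each of the 4 main types, multiplexin and short-chain genes and chains sharing a molecule with any of these, of each pathway list the called genes, the 2 highest and the 2 lowest, and of most marker lists the 2 genes furthest from 0. Col3a1, Col27a1 and the remaining collagens were named after their values were seen. Alternatives were an offset of 0, the scanner software's ratios, the value table, median centring, no filter on dim probes, a filter on both regions, the mean of probes, each array alone, and rules of 1.3-fold and 2-fold.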

Additional observations from a re-analysis of the deposited data

How the results depend on the processing

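No paired analysis was possible because each region has 1 pool and the arrays are a technical dye swap. The count of collagen genes higher in the arch was 0 under every alternative run. The count of those lower, 0, became 1 with an offset of 0 (Col8a2), 2 with the scanner software's ratios and 2 with the value table (Col8a2 and Col12a1), and 2 with the 1.3-fold rule (Col8a2 and Col6a3). It was 0 on array 1 alone and 1 on array 2 alone (Col8a2). The share of all genes lower was 0.487% with an offset of 0 and 0.599% with the scanner software's ratios. With the 1.3-fold rule it was 0.524%. Median centring moved the median of all collagen genes from 0.00 to −0.10, of fibrillar genes from −0.02 to −0.12, of basement membrane genes from 0.04 to −0.12 and of FACIT genes from 0.00 to −0.05, where the median of all genes was −0.04. Under it 9 of 36 collagen genes changed sign. As the mean of probes the fibrillar median was 0.02. Between the arrays alone, the medians ranged from −0.04 to 0.02 for all collagen genes, from −0.04 to 0.00 for fibrillar, from −0.02 to 0.04 for basement membrane, from −0.25 to 0.06 for beaded filament and from −0.06 to 0.01 for FACIT genes. Dim spots limit precision: the median collagen spot signal was 97.1 to 112 per channel, where the median background over all gene spots was 40 to 48.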

Other observations

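Of the probes that the gene-name rule leaves out, 5 match collagen genes by accession or synonym in RefSeq. The probe filed under an older name of Col6a4, a type VI chain, measured 0.00 ± 0.01, that of Col26a1 −0.01 ± 0.03 and that of Col28a1, a collagen of peripheral nerve, −0.04 ± 0.04. The probe of Col6a6 and another of Col11a1 were not detected above background.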
